A study of Mus musculus with 9 samples.

Results

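Organic anion transporters carry drugs, toxins, steroid conjugates and urate across the membranes of the renal tubule. The 10 genes described here belong to the Slco family (Slco1a1 and Slco1a6) and the Slc22 family (Slc22a6, Slc22a7, Slc22a8, Slc22a12, Slc22a19, Slc22a26, Slc22a28 and Slc22a30). They were chosen by name, with earlier results of these data known, among them the low levels of several of them in db/db mice, and they are 10 of the 22180 genes that had a probe set with a single gene symbol. RNA came from the renal cortex of male C57BLKS/J mice aged 20 weeks and was hybridised to 9 Affymetrix arrays. The db/db+TSF mice (3 arrays) were gavaged for 12 weeks with Tang-shen Formula (TSF), a Chinese herbal mixture, at 2.4 g/kg/day. The db/db mice (3 arrays) were given saline instead. Both of these groups carry only mutant copies of the leptin receptor gene, in every tissue, and become obese and diabetic. The db/m mice (3 arrays) carry 1 mutant copy and stay lean, and the sources used here do not say whether they were gavaged. The labels put 9 mice in each db/db group and call every array a biological replicate.

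Proximal tubule cells take organic anions from the blood through Slc22 carriers of the basolateral membrane, which exchange them for dicarboxylates, while apical carriers move anions between the cell and the urine. Slco proteins are a separate family of uptake carriers for larger anions such as bile acids and steroid conjugates. In rodents several of these genes differ between the sexes, and androgens raise Slco1a1 in the male mouse kidney.

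Values are log2(intensity + 1) of the deposited intensities unless intensity units are named, and levels are not compared between genes. All 12 proximal tubule markers passed a filter on dim signals (a mean over the 9 arrays of at least 2.65). So did all 6 liver and all 6 leukocyte markers, so passing it does not identify the tissue. Mean levels of the proximal tubule markers in db/m ran from 10.65 for Slc5a2 to 12.17 for Slc34a1. The summed intensity of these 12 was 35250 to 35800 in db/db+TSF, 33180 to 35510 in db/db and 33000 to 34940 in db/m. Over the 17740 genes that passed this filter, limma at a Benjamini-Hochberg adjusted p of 0.05 called 187 (1.05%) for db/db relative to db/m, 0 (0%) for db/db+TSF relative to db/db and 556 (3.13%) for db/db+TSF relative to db/m. Of the 10 transporters, 9 passed the filter and Slc22a30 was too dim to be tested. Slco1a1 passed only through its db/m level, since its means in db/db+TSF and db/db lay under the filter.

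**Figure D1:**
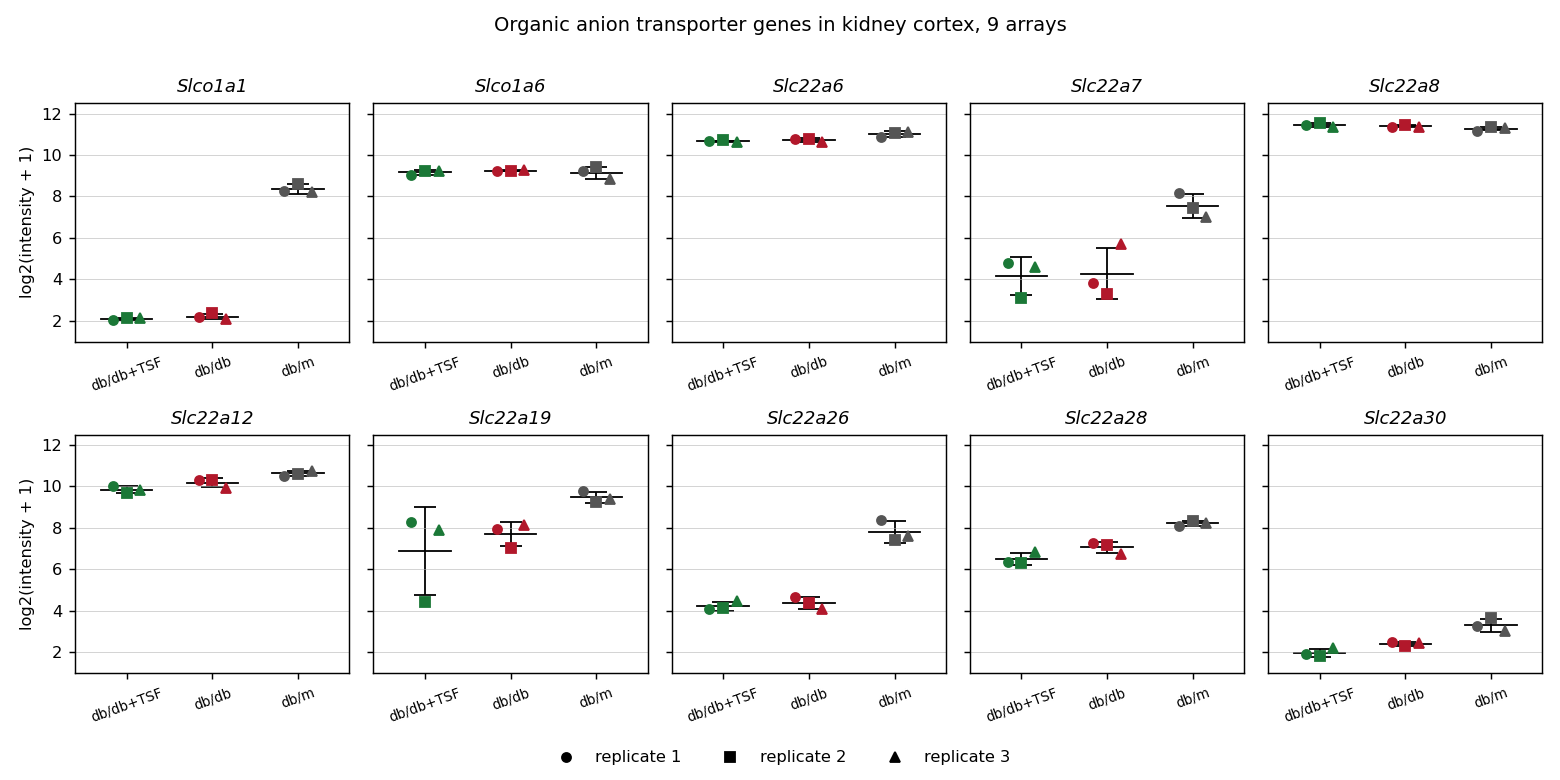
Level of each of the 10 transporter genes as log2(intensity + 1) in every array, with db/db+TSF on the left, db/db in the middle and db/m on the right of each panel. Symbols mark the replicate number, long bars the mean and error bars the SD (n = 3). Slco1a1 lies between 2.06 and 2.36 in the 6 arrays of db/db+TSF and db/db and between 8.22 and 8.62 in db/m, while the groups overlap in Slco1a6.

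Slco1a1, an apical uptake carrier of bile acids and steroid conjugates, separated the lean mice from both obese groups. It measured 2.06, 2.14 and 2.12 in db/db+TSF, 2.17, 2.36 and 2.10 in db/db, and 8.24, 8.62 and 8.22 in db/m. The db/m arrays stood far above all 6 others, which overlapped each other. The difference of db/db from db/m was -6.15 (SE 0.12). Mean intensities of 3.30 units in db/db+TSF, 3.64 in db/db and 330.3 in db/m put the low side near the lowest deposited value of 1.34, so the size depends on the pseudocount. The difference was -4.13 with a pseudocount of 16 and -6.50 with none. In bulk tissue, fewer cells of a type and less RNA per cell cannot be told apart.

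Slco1a6, a less studied relative of Slco1a1 in the same gene cluster on chromosome 6, did not separate the groups. It measured 9.02, 9.21 and 9.24 in db/db+TSF, 9.22, 9.23 and 9.28 in db/db, and 9.22, 9.40 and 8.84 in db/m. All 3 groups overlapped, and the db/db mean was 0.09 above the db/m mean (SE 0.13), a sign that held in 18 of 20 alternative fits. RefSeq places Gm6614 between the pair, with Slco1a4 and Slco1a5 on the outer sides. Slco1a4, a carrier of bile acids and digoxin, measured 3.34, 3.27 and 3.33 in db/db+TSF, 3.49, 3.05 and 3.29 in db/db, and 3.39, 3.88 and 3.86 in db/m, with overlap between db/db and db/m, and Slco1a5 was too dim to be tested.

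The windows around the starts of Slco1a1 and Slco1a6 are shown because these near neighbours gave different patterns across the groups. Each runs from 250 bases before to 50 bases after the gene start, 5′ to 3′ on the gene's strand, from RefSeq on GRCm38.p6, at chr6:141946913-141947212 (minus strand) for Slco1a1 and chr6:142186100-142186399 (minus strand) for Slco1a6. Capitals mark matches on either strand to AGGTCA, the core motif of HNF4 and other nuclear receptors, and to TATAAA, the TATA box motif.
Slco1a1: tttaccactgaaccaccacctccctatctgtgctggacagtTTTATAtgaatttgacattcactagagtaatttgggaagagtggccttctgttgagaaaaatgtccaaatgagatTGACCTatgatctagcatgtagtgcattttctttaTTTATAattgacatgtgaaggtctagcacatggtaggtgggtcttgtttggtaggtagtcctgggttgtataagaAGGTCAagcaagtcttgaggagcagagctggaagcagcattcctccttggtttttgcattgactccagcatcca
Slco1a6: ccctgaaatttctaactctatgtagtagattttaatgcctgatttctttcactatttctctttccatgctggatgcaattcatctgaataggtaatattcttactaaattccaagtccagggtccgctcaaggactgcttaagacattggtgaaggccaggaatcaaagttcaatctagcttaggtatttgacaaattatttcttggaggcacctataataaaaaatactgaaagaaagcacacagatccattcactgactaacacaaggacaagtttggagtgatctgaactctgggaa
The Slco1a1 window holds AGGTCA on the gene's strand at -24 and on the opposite strand at -134, and TATAAA on the opposite strand at -209 and -99, counted from the gene start to the first base of the match. Neither TATAAA match reads on the gene's strand, and whether either works as a TATA box was not tested. Of 32817 RefSeq windows of this length, 16.3% hold AGGTCA and 13.6% hold TATAAA. The Slco1a6 window holds none of the 5 motifs searched. The other motifs were AGAACA (the core motif of androgen and glucocorticoid receptors), GTTAAT (the core motif of HNF1) and TTCNNNGAA (a STAT motif).

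The main basolateral carriers gave small differences. Slc22a6 (OAT1), which takes up p-aminohippurate and many drugs, measured 10.65, 10.70 and 10.63 in db/db+TSF, 10.78, 10.76 and 10.63 in db/db, and 10.84, 11.04 and 11.12 in db/m. Every db/db+TSF and db/db array lay below every db/m array, with a mean difference of -0.28 in db/db (SE 0.10). Slc22a8 (OAT3), which shares many substrates with OAT1, measured 11.43, 11.56 and 11.37 in db/db+TSF, 11.36, 11.44 and 11.37 in db/db, and 11.17, 11.33 and 11.30 in db/m. It was the only one of the 10 genes whose db/db arrays all lay above the db/m arrays, by a mean of 0.12 (SE 0.09). The genes are neighbours on chromosome 19, and both RefSeq windows hold GTTAAT on the gene's strand, at -56 in Slc22a6 and -81 in Slc22a8. This motif is in 7.1% of all windows.

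Slc22a7 (OAT2), a carrier of liver and kidney that takes nucleotides and other small anions, varied within both obese groups. It measured 4.81, 3.11 and 4.60 in db/db+TSF, 3.85, 3.30 and 5.70 in db/db, and 8.15, 7.44 and 7.01 in db/m. The db/m arrays lay above all others, and the other groups overlapped. The difference of db/db from db/m was -3.25 (SE 0.58), and ran from -3.95 to -2.76 with 1 array left out. The highest db/db value came from replicate 3. In that array 51 of 17740 genes (0.287%) lay at least 2-fold above both other db/db arrays, Slc22a7 among them. Among the leukocyte markers S100a8, a neutrophil gene, measured 2.36, 2.45 and 6.10 in db/db, and S100a9, Lyz2 and Ptprc were also highest in replicate 3. Cd3e (4.24, 4.39 and 4.19 in db/db) and Cd68 (4.99, 5.09 and 4.99 in db/db) were not. The summed intensity of 6 leukocyte markers was 112 to 140.5 in db/db+TSF, 149.3 to 296.4 in db/db and 167.4 to 209.2 in db/m. Of 6 liver markers 4 lay above 0 and 2 below for db/db relative to db/m (median 0.09), with differences of 0.82 for Ttr, 0.48 for Alb and -0.41 for Cyp2e1. Cyp2e1 averaged 11.50 in db/db+TSF, 11.49 in db/db and 11.91 in db/m. Whether its signal came from liver or kidney cells was not tested. The part of leukocyte or liver RNA in the Slc22a7 values was not tested.

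Slc22a12 (URAT1), the apical exchanger that reabsorbs urate, had its highest values in db/m and its lowest in db/db+TSF. It measured 10.01, 9.67 and 9.83 in db/db+TSF, 10.31, 10.31 and 9.92 in db/db, and 10.51, 10.62 and 10.76 in db/m. The db/m arrays lay above all others, and db/db replicate 3 fell among the db/db+TSF arrays. The differences were -0.80 for db/db+TSF relative to db/m and -0.45 for db/db relative to db/m (SE 0.13 each).

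The other members lie in a run of Slc22 genes on chromosome 19 that RefSeq orders as Slc22a19, Slc22a26, Slc22a27, Slc22a28, Slc22a29, Slc22a30, Slc22a8 and Slc22a6. Substrates of Slc22a26, Slc22a28 and Slc22a30 are little known. Slc22a26 measured 4.07, 4.12 and 4.48 in db/db+TSF, 4.66, 4.39 and 4.08 in db/db, and 8.39, 7.40 and 7.61 in db/m. The db/m arrays stood far above the other 6, which overlapped, and the difference of db/db from db/m was -3.42 (SE 0.23). The difference was -2.73 with a pseudocount of 16. Slc22a28 measured 6.37, 6.31 and 6.82 in db/db+TSF, 7.26, 7.17 and 6.73 in db/db, and 8.10, 8.32 and 8.24 in db/m. Its db/m arrays were again the highest, and db/db+TSF replicate 3 lay above db/db replicate 3. Slc22a30 measured 1.90, 1.84 and 2.21 in db/db+TSF, 2.50, 2.31 and 2.46 in db/db, and 3.25, 3.65 and 3.03 in db/m. Its 3 groups did not overlap, but all values lay near the floor of the scale, and the difference of db/db from db/m shrank to -0.30 with a pseudocount of 16, against -0.89. Their neighbours Slc22a27 and Slc22a29 were too dim to be tested. Slc22a29 was 0.37 above db/m in db/db, the other way from Slc22a28 and Slc22a30 on either side of it.

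The windows of Slc22a28 and Slc22a30 are shown because they are near copies. In an alignment 288 of 294 aligned bases were identical, and the longest run shared without a difference, in capitals, was 98 bases long. They come from RefSeq on GRCm38.p6, at chr19:8131933-8132232 for Slc22a28 and chr19:8405056-8405355 for Slc22a30, both on the minus strand.
Slc22a28: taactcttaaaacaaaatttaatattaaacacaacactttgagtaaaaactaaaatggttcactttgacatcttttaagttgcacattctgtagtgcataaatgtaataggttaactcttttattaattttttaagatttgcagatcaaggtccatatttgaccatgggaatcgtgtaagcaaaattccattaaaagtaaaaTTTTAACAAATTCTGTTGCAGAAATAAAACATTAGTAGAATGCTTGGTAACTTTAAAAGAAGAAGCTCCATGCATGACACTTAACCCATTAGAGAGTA
Slc22a30: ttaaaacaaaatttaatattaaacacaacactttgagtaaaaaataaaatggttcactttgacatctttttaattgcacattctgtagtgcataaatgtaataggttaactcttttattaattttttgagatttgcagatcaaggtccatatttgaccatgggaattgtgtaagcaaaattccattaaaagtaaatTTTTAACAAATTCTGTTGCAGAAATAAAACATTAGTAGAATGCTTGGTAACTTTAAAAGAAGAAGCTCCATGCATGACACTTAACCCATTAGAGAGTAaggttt
Neither window holds any of the 5 motifs. Whether the probe sets of these genes also bind RNA of a near copy was not tested.

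Slc22a19 (Oat5), an apical carrier of steroid sulfates in rodents, spread more within a group than any other member. It measured 8.31, 4.43 and 7.88 in db/db+TSF, 7.93, 7.04 and 8.16 in db/db, and 9.78, 9.26 and 9.40 in db/m. Every db/m array lay above the other 6, and db/db+TSF replicate 2 differed by -3.67 from the mean of the other arrays of its group. The difference of db/db+TSF from db/m was -2.61 (SE 0.78), and -1.38 without that array. That of db/db from db/m was -1.77 (SE 0.78).

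The windows of Slc22a19 and its neighbour Slc22a26, at chr19:7711261-7711560 and chr19:7802618-7802917 on GRCm38.p6 and both on the minus strand, are shown because they alone among the members' windows hold AGAACA and TTCNNNGAA, which are in capitals.
Slc22a19: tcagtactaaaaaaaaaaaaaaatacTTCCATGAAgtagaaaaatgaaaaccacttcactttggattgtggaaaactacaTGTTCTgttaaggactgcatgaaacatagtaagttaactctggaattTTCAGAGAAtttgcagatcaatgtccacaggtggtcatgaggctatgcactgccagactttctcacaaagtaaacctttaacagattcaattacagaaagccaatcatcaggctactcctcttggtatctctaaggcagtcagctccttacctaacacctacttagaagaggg
Slc22a26: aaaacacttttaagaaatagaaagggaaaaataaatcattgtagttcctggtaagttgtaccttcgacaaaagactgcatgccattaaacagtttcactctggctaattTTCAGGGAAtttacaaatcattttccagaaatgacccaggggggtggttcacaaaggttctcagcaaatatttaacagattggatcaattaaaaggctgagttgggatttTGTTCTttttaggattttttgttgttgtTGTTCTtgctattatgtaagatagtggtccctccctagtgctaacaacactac
Slc22a19 has AGAACA on the opposite strand at -170 and TTCNNNGAA, which reads the same on both strands, at -224 and -123. Slc22a26 has AGAACA on the opposite strand at -31 and -3 and TTCNNNGAA at -141. Of the 32817 windows, 6226 hold AGAACA and 8.29% hold TTCNNNGAA, and a match is not a binding site. The 9 members with a window had 0 to 6 CG pairs in it, against a median of 7 over all windows.

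Replicate 2 of db/db+TSF was low in other tubule genes besides Slc22a19. In that array 70 of 17740 genes (0.395%) lay at least 2-fold below both other arrays of the group, against 1 to 10 genes in each of the other 8 arrays. Slc22a19 and Slc22a7 were among the 70. Slc22a13 (OAT10), an apical exchanger of urate and nicotinate, measured 9.16, 6.87 and 8.84 in db/db+TSF. Slco4c1, a basolateral carrier of digoxin and thyroid hormone, measured 6.34, 3.75 and 6.18 in db/db+TSF. In both genes replicate 2 was far below the other 2 arrays of the group, and below all db/db arrays (8.52, 8.37 and 8.76 in db/db for Slc22a13 and 6.18, 6.33 and 6.01 in db/db for Slco4c1). Slc7a13, an amino acid carrier of the S3 segment at the end of the proximal tubule, measured 8.54, 6.27 and 9.29 in db/db+TSF, 9.71, 9.63 and 8.75 in db/db, and 10.85, 10.80 and 10.56 in db/m. Atp11a, a phospholipid flippase that marks the same segment, measured 9.33, 7.96 and 9.14 in db/db+TSF, 9.43, 9.43 and 9.27 in db/db, and 10.56, 10.58 and 10.43 in db/m. In both genes the db/m arrays lay above all others and the lowest value was that of db/db+TSF replicate 2. The other S3 markers did not follow them. Slc5a1, a glucose carrier, measured 8.40, 8.02 and 8.36 in db/db+TSF, 8.51, 8.50 and 8.27 in db/db, and 8.11, 7.77 and 7.83 in db/m, and its db/db arrays lay above the db/m arrays. Slc3a1, a subunit of amino acid carriers, differed by -0.08 in db/db relative to db/m. Slc5a2, the glucose carrier of the early proximal tubule, measured 10.95, 11.15 and 10.95 in db/db+TSF, highest in replicate 2. Summed over the 4 S3 markers, intensity was 2094 to 3268 in db/db+TSF, 3242 to 3832 in db/db and 5164 to 5624 in db/m, and the part of S3 content in the transporter values was not tested.

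**Figure D2:**
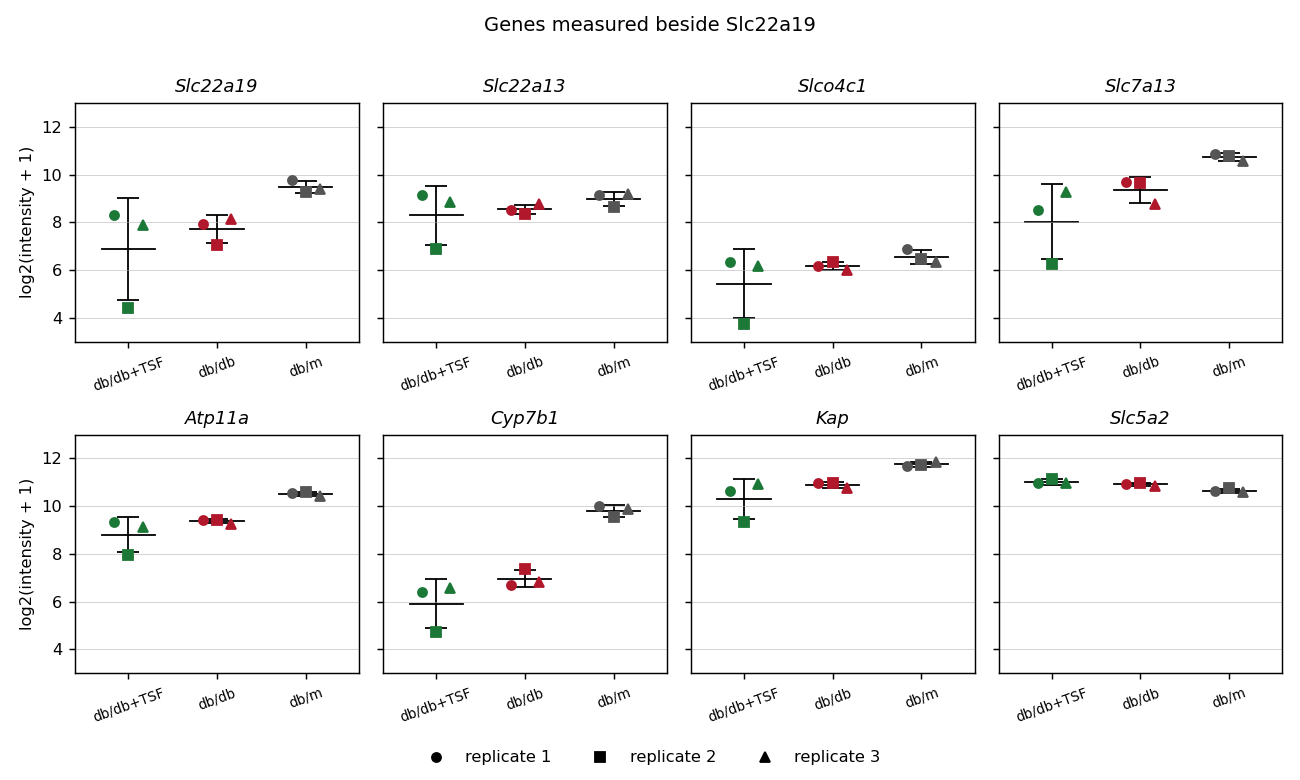
Levels as log2(intensity + 1) in every array of Slc22a19 and 7 genes picked after their values were seen, with db/db+TSF, db/db and db/m from left to right. Symbols mark the replicate number, long bars the means and error bars the SD (n = 3). In db/db+TSF, replicate 2 lies below the other arrays in all panels but that of Slc5a2 and reaches 4.43 for Slc22a19.

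The difference between obese diabetic and lean cortex was negative for most of these transporters. For db/db relative to db/m, 8 of the 10 lay below 0 and 2 above, with a median of -1.02, against 0.01 for all genes tested. Of the 9 tested, limma called 4 lower (Slco1a1, Slc22a7, Slc22a26 and Slc22a28), where 0.462% of all genes were called lower, and 0 higher, where 0.592% were. Slco1a1 entered the test only through the group in which it is high, so its call is set apart, which leaves 3 of the other 8. The groups did not overlap in 8 members that were lower and 1 that was higher, against 8.28% and 10.4% of all genes. Since the members were picked with these values known, the counts are a description. The count of 4 became 3 without any 1 of the db/m arrays or without db/db replicate 1 or replicate 2, as Slc22a7 dropped out. Leaving out db/db+TSF replicate 2 made it 5, as Slc22a19 came in. With an intensity trend and robust variance Slc22a7 also dropped out, and with only the 6 arrays compared Slc22a19 came in. Without the filter on dim signals Slc22a30 was tested and came in, with values near the floor.

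**Figure D3:**
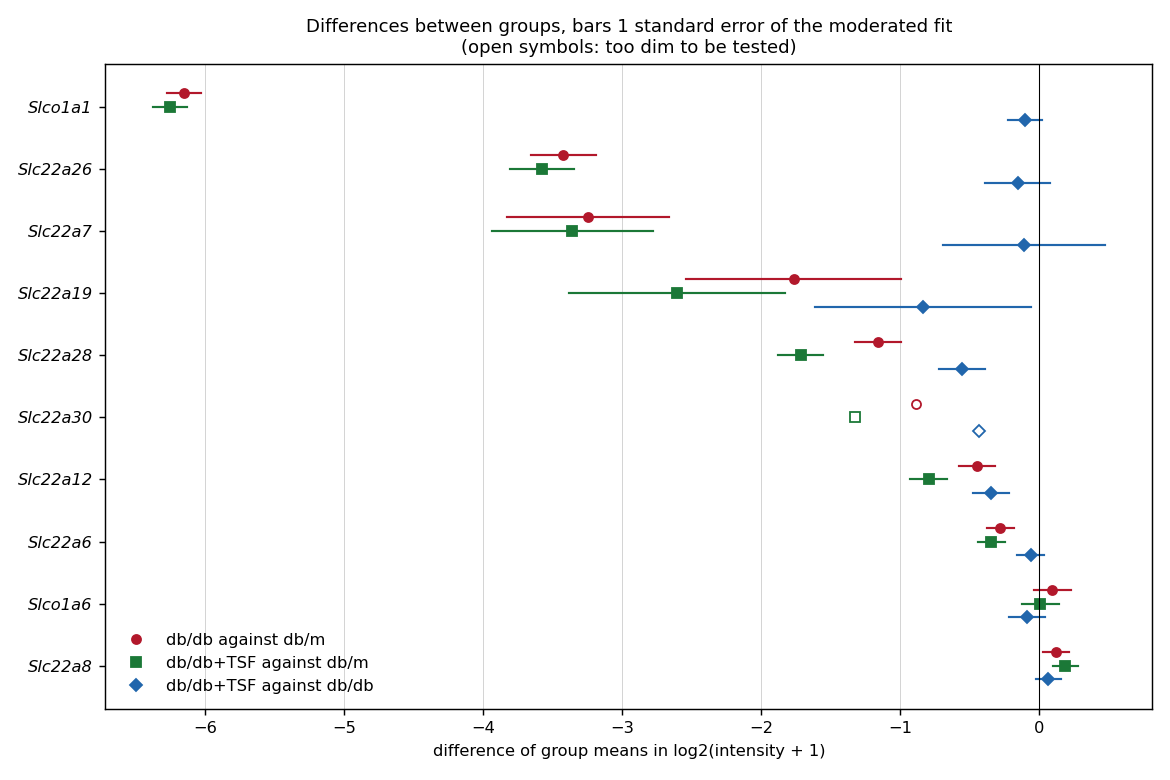
Difference of group means in log2(intensity + 1) for the 10 genes in the 3 comparisons. Bars are 1 SE of the moderated fit, and open symbols mark Slc22a30, which was not tested. Differences from db/m run from -6.25 to 0.19, while those of db/db+TSF from db/db lie between -0.84 and 0.07.

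The effect of the formula was measured as db/db+TSF relative to db/db, with the same db/db arrays that were in view when the members were picked. Limma called 0 of the 9 members, while 2 of 9 members and 2079 of all genes (11.7%) had an unadjusted p under 0.05. Slco1a1 is counted among the 9, though its means of 2.10 in db/db+TSF and 2.21 in db/db lay under the filter. A further fall of Slco1a1 could hardly have shown here. Slc22a28 averaged 6.50 ± 0.28 in db/db+TSF and 7.06 ± 0.28 in db/db (SD, n = 3). The difference was -0.56 (95% interval -0.92 to -0.20, limma adjusted p = 0.284, and 0.163 to 0.637 over the alternatives). Slc22a12 averaged 9.84 ± 0.17 in db/db+TSF and 10.18 ± 0.23 in db/db (SD, n = 3). The difference was -0.35 (95% interval -0.64 to -0.06, limma adjusted p = 0.364, and 0.174 to 0.72 over the alternatives). In both genes db/db replicate 3 lay below the highest db/db+TSF value, so the groups overlapped.

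The other members differed less or had wide intervals, and their limma adjusted p-values ran from 0.699 to 0.96. Slco1a1 differed by -0.10 (95% interval -0.37 to 0.16), with both groups near the floor. Slc22a26 differed by -0.15 (-0.67 to 0.36), Slc22a6 by -0.06 (-0.28 to 0.15), Slco1a6 by -0.09 (-0.38 to 0.20) and Slc22a8 by 0.07 (-0.13 to 0.26). The intervals of Slc22a6, Slco1a6 and Slc22a8 do not reach a 2-fold difference, which is 1 on this scale. Slc22a7 differed by -0.11, with an interval from -1.39 to 1.17 that does. Its sign turned, to 0.60 without db/db replicate 3 and to 0.42 without db/db+TSF replicate 2. Slc22a19 differed by -0.84 (-2.55 to 0.87), and by 0.39 without db/db+TSF replicate 2. In all, 9 of the 10 genes lay below 0 with a median of -0.13, against -0.02 for all genes tested. Slc22a30 alone was lower without overlap, as were 12.3% of all genes, and 0 members were higher without overlap, as were 7.81% of all genes.

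The treated mice also lay below the lean mice in most members. For db/db+TSF relative to db/m, limma called 5 of 9 lower (Slco1a1, Slc22a7, Slc22a12, Slc22a26 and Slc22a28), where 1.92% of all genes were, and 0 higher, where 1.22% were. Without Slco1a1, set apart for the same reason, these are 4 of 8. The groups did not overlap in 8 members that were lower and 1 that was higher, against 12.4% and 9.76% of all genes. This comparison shares the db/m arrays with the one known when the members were chosen, so these counts are a description too. Slc22a28 differed from db/m by -1.72 in db/db+TSF and by -1.16 in db/db (SE 0.16 each). Slc22a7 lost its call without db/m replicate 1 and with an intensity trend and robust variance. Slc22a6 gained one with quantile normalization, with a pseudocount of 16 and with the intensity trend, and Slc22a19 with the replicate block. Slc22a30, near the floor, gained one without the filter on dim signals.

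Few of the other Slco and Slc22 genes changed. Of 28 with a probe set 20 were tested, and for db/db relative to db/m 1 fell, 0 rose and 19 did not pass, with a median of -0.09. Slc22a2 (OCT2), the basolateral carrier of organic cations, measured 10.44, 10.33 and 10.43 in db/db+TSF, 10.46, 10.45 and 10.39 in db/db, and 10.85, 10.93 and 10.99 in db/m. All db/m arrays lay above the other 6, and Slc22a2 fell by 0.49 in db/db (limma adjusted p = 0.0233). That call was lost without db/m replicate 2 (0.0654), db/m replicate 3 (0.0584), db/db replicate 1 (0.083), db/db replicate 2 (0.062) or db/db replicate 3 (0.09). Slco4a1, a thyroid hormone carrier, had its highest values in db/db, with 5.62, 4.99 and 5.57 in db/db+TSF, 6.16, 6.14 and 6.54 in db/db, and 5.09, 5.70 and 5.37 in db/m. The differences were 0.89 for db/db relative to db/m (adjusted p = 0.0573) and -0.89 for db/db+TSF relative to db/db (adjusted p = 0.237). The db/db difference from db/m passed without db/db+TSF replicate 2 (0.0289).

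For db/db+TSF relative to db/db limma called 0 of these 20 genes, and 2 had an unadjusted p under 0.05. Relative to db/m, 2 of the 20 fell in db/db+TSF, Slc22a2 (difference -0.52, adjusted p = 0.00988) and Slc22a22, a prostaglandin carrier (difference -0.67, adjusted p = 0.0178). Slc22a22 measured 8.30, 8.49 and 8.61 in db/db+TSF, 8.98, 8.82 and 8.72 in db/db, and 9.14, 9.33 and 8.94 in db/m. Its db/db+TSF arrays lay below all others, but this did not pass without db/m replicate 1 (0.0644), db/m replicate 2 (0.0576), db/db+TSF replicate 1 (0.0591) or db/db+TSF replicate 2 (0.0581).

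**Figure D4:**
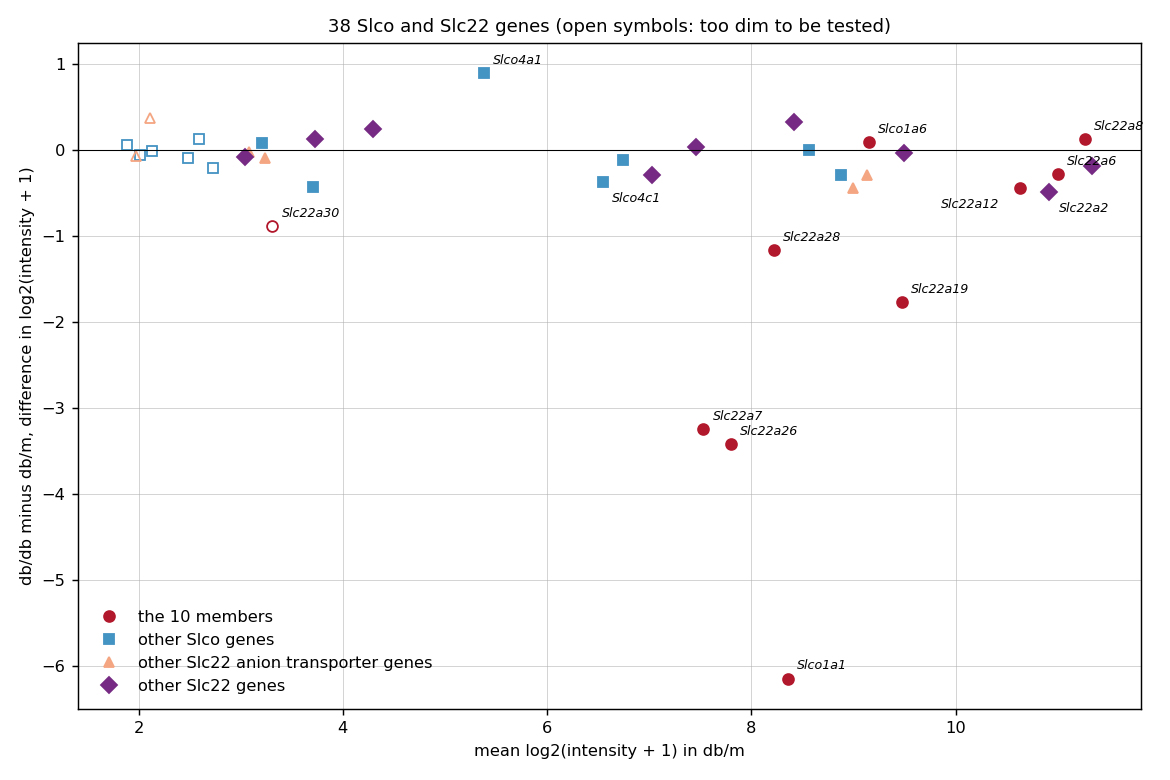
Difference of db/db from db/m in log2(intensity + 1) on the y axis against the db/m mean on the x axis for 38 Slco and Slc22 genes, with open symbols for genes too dim to be tested. Slco1a1, Slc22a26, Slc22a7, Slc22a19 and Slc22a28 lie below -1, and the 28 genes that are not members lie between -0.49 and 0.89.

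Of 14 genes that work beside these carriers, 1 rose and 0 fell for db/db relative to db/m (median -0.11). Abcc4 (MRP4), an apical pump that exports organic anions into the urine, measured 8.61, 8.89 and 8.59 in db/db+TSF, 8.49, 8.68 and 8.30 in db/db, and 7.35, 7.60 and 7.78 in db/m. Every db/db+TSF and db/db array lay above the db/m arrays, and Abcc4 rose by 0.92 in db/db (adjusted p = 0.0115), a call lost without db/db replicate 1 (0.0536). In db/db+TSF it rose by 1.12 relative to db/m (adjusted p = 0.00229). Slc17a3 (NPT4), an apical urate and drug exporter, measured 9.29, 9.14 and 9.30 in db/db+TSF, 9.66, 9.44 and 9.20 in db/db, and 10.17, 10.01 and 9.86 in db/m, and fell by 0.77 in db/db+TSF relative to db/m (adjusted p = 0.0105). Its relative Slc17a4 fell by 0.62 there (adjusted p = 0.0295), a call lost without db/m replicate 2 (0.0846), db/m replicate 3 (0.078), db/db+TSF replicate 1 (0.0884), db/db+TSF replicate 2 (0.0748) or db/db+TSF replicate 3 (0.0847). Slc13a3, which imports the dicarboxylates that OAT1 and OAT3 exchange, measured 11.35, 11.50 and 11.27 in db/db+TSF, 11.38, 11.36 and 11.09 in db/db, and 11.06, 11.21 and 11.32 in db/m, with overlapping groups. Slc2a9, also of this list, lay above db/m in db/db without overlap, by 0.43 (limma adjusted p = 0.0804). For db/db+TSF relative to db/db limma called 0 of these 14, and 1 had an unadjusted p under 0.05.

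Of 13 genes of transcription factors and hormone receptors, 0 passed for db/db relative to db/m and 0 for db/db+TSF relative to db/db, where 4 and 3 had an unadjusted p under 0.05 (13.9% and 11.7% of all genes). Hnf4a, a nuclear receptor that drives transporter genes in liver and kidney, measured 10.62, 10.60 and 10.68 in db/db+TSF, 10.64, 10.79 and 10.61 in db/db, and 10.70, 10.83 and 10.80 in db/m. Its difference in db/db was -0.10 (adjusted p = 0.655). Esr1, the estrogen receptor, measured 6.30, 5.62 and 6.53 in db/db+TSF, 6.49, 6.39 and 6.15 in db/db, and 7.42, 7.13 and 7.13 in db/m, with db/m above all others. It differed by -0.88 in db/db (adjusted p = 0.0657), which passed without db/db+TSF replicate 2 (0.0103). Of the same 13 genes, Nr1i2 and Ahr lay above db/m in db/db without overlap, by 0.66 (limma adjusted p = 0.0709) and 0.29 (limma adjusted p = 0.142). In db/db+TSF relative to db/m 2 fell and 1 rose. Esr1 fell by 1.08 (adjusted p = 0.0168), lost without db/m replicate 1 (0.0706). Hnf4g fell by 0.70 (adjusted p = 0.0226), lost without db/m replicate 1 (0.0834), db/m replicate 2 (0.0575), db/db+TSF replicate 1 (0.0709) or db/db+TSF replicate 2 (0.0893). Ppara, a fatty acid sensor, rose by 0.72 (adjusted p = 0.024), lost without db/m replicate 1 (0.0806), db/m replicate 3 (0.0665), db/db+TSF replicate 2 (0.0916) or db/db+TSF replicate 3 (0.0898).

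Kidney genes that androgens raise, outside the transporter families, were measured beside the members. All 7 lay below 0 for db/db relative to db/m (median -0.56), 2 fell and 5 did not pass. Gusb hardly differed (-0.03, limma adjusted p = 0.911), with overlapping groups. Odc1 differed by -0.45 (limma adjusted p = 0.132) and Cyp4b1 by -0.39 (limma adjusted p = 0.129). Cyp7b1, a steroid hydroxylase, measured 6.40, 4.74 and 6.58 in db/db+TSF, 6.70, 7.36 and 6.82 in db/db, and 10.01, 9.53 and 9.87 in db/m, and fell by 2.84 in db/db (adjusted p = 0.00726). Cyp2j13, a fatty acid epoxygenase, fell by 1.17 (adjusted p = 0.0374), and that call was lost without db/m replicate 1 (0.0736), db/m replicate 2 (0.106), db/m replicate 3 (0.0955), db/db replicate 1 (0.08), db/db replicate 2 (0.0708) or db/db replicate 3 (0.112). Kap, the kidney androgen-regulated protein, measured 10.65, 9.34 and 10.92 in db/db+TSF, 10.99, 10.95 and 10.74 in db/db, and 11.70, 11.71 and 11.87 in db/m. Its db/m arrays lay above all others, and its difference in db/db (adjusted p = 0.233) passed without db/db+TSF replicate 2 (0.00556). In db/db+TSF relative to db/m 4 of the 7 fell, Cyp7b1 (difference -3.89, adjusted p = 0.000618), Cyp2j13 (difference -1.75, adjusted p = 0.00299), Timd2 (difference -1.08, adjusted p = 0.00265) and Kap (difference -1.45, adjusted p = 0.0306). The Kap call ended without db/m replicate 1 (0.0831), db/m replicate 2 (0.0701) or db/m replicate 3 (0.0923). For db/db+TSF relative to db/db limma called 0 of the 7, with 3 at an unadjusted p under 0.05.

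Markers of kidney and other cell types gave few calls. Of the 12 proximal tubule markers 0 passed limma's test in any comparison, with at most 2 at an unadjusted p under 0.05. Pck1, higher in db/db+TSF than in db/m, did pass there without db/m replicate 3 (0.0486). Of the 4 S3 markers 0 passed for db/db relative to db/m, though Slc7a13 did without db/db+TSF replicate 2 (0.0332) and Atp11a without db/db+TSF replicate 2 (0.000539), and both fell in db/db+TSF relative to db/m (adjusted p = 0.0328 and 0.00836). Slc5a1 ran the other way, with differences of 0.52 in db/db (adjusted p = 0.0938) and 0.36 in db/db+TSF (adjusted p = 0.19) relative to db/m. The Slc7a13 call ended without db/m replicate 1 (0.101), db/m replicate 2 (0.0812), db/m replicate 3 (0.0799) or db/db+TSF replicate 1 (0.051). All 6 markers of other tubule segments lay above 0 for db/db relative to db/m (median 0.32), and 3 had an unadjusted p under 0.05. Their summed intensity was 9206 to 10160 in db/db+TSF, 9207 to 10490 in db/db and 7728 to 8060 in db/m. Among them limma called Calb1, of the distal tubule, which rose by 0.68 in db/db (adjusted p = 0.0483). That call was lost without db/m replicate 1 (0.134), db/m replicate 3 (0.115), db/db replicate 1 (0.155), db/db replicate 3 (0.151), db/db+TSF replicate 1 (0.0702), db/db+TSF replicate 2 (0.06) or db/db+TSF replicate 3 (0.0806). In db/db+TSF Calb1 rose by 1.04 relative to db/m (adjusted p = 0.00336). Of 5 podocyte, endothelial and adipocyte markers and 6 liver markers 0 passed limma's test in any comparison, with at most 2 and 3 at an unadjusted p under 0.05. Among 6 leukocyte markers Cd3e fell by 0.78 in db/db (adjusted p = 0.0239), lost without db/m replicate 1 (0.0688), db/db replicate 1 (0.0951) or db/db replicate 3 (0.09). Relative to db/m in db/db+TSF, Cd3e (adjusted p = 0.0468) and Cd68 (adjusted p = 0.0267) fell. Cd3e passed there in 1 and Cd68 in 4 of the 9 fits with 1 array left out.

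The genes outside these lists whose profile over the 9 arrays was most like the median profile of the 9 tested members were Snx31, C1qtnf3, Cpe, Degs2 and Fmo5. Likeness was the root mean square distance after each gene was centred on its db/m mean, and ran from 0.11 for Snx31 to 0.23 for Fmo5. Snx31, a sorting nexin, measured 4.80, 4.42 and 4.66 in db/db+TSF, 5.02, 5.09 and 4.65 in db/db, and 6.04, 6.11 and 5.99 in db/m. Its db/m arrays lay above all others, and the other groups overlapped. C1qtnf3, a secreted protein of the C1q family, averaged 7.85 ± 0.11 in db/db+TSF, 8.10 ± 0.08 in db/db and 9.24 ± 0.15 in db/m (SD, n = 3). Fmo5, a flavin monooxygenase, averaged 7.02 ± 0.33 in db/db+TSF, 7.16 ± 0.14 in db/db and 8.52 ± 0.22 in db/m (SD, n = 3). They were picked for this likeness, so it carries no test.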

How the data were processed

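Total RNA of 9 kidney cortex samples was labelled with biotin and hybridised to Affymetrix arrays, per the labels. The deposited values are linear intensity values, 1 per probe set and array. Affymetrix Expression Console and Transcriptome Analysis Console are the programs listed in the submitters' processing notes. How background was corrected and arrays were normalized is not given in the sources used here. Array medians lay between 10.3 and 11.2 intensity units. Of 41345 probe sets, 23521 had 1 symbol in the platform annotation, and 1814 with several were not used. The brightest probe set stood for each gene. Values became log2(value + 1), which understates the change of dim genes, and genes with a mean under the 30th percentile of probe sets were left out. The 3 groups were fitted on all 9 arrays with limma 3.58.1 in R 4.3.3 (eBayes, Benjamini-Hochberg over 17740 genes, threshold 0.05), which was also tested on simulated data. The number of arrays limits the precision.

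The members, the 13 gene lists and the tests were chosen with earlier results of these data known. Of 122 list entries 111 had a probe set. The text names all members, list genes past the threshold and 5 genes most like the members. It names some, but not all, of up to 4 others per list of smallest p in db/db relative to db/m or in db/db+TSF relative to db/db. Hnf4a, Slc13a3, the genes described for db/db+TSF replicate 2, and neighbours in the gene clusters were picked outside this rule. Alternatives covered the filter, probe set, scaling, pseudocount, variance model, arrays fitted, replicate block, array weights and leaving out each array. Promoter windows are RefSeq's on GRCm38.p6, which held 9 of the 10 members.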

Additional observations from a re-analysis of the deposited data

How the results depend on the processing

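Each result was recomputed under 11 other settings and with each of the 9 arrays left out. Under all of them limma called 0 members and 0 of all genes for db/db+TSF relative to db/db. Members called for db/db relative to db/m numbered 3 to 5, and for db/db+TSF relative to db/m 4 to 6. The single call among other Slco and Slc22 genes for db/db relative to db/m became 2 with an intensity trend and robust variance, 0 with only the 6 arrays compared and 0 with the replicate block, and the cause was not tested. With 1 array left out it ran from 0 to 2, and the count for db/db+TSF relative to db/m from 1 to 2. Over all genes, leaving out 1 array gave 72 to 194 calls for db/db relative to db/m and 213 to 563 for db/db+TSF relative to db/m. Of the recomputed member differences 583 kept their direction and call or stayed within the spread, 10 moved further, all with another pseudocount, and 4, in db/db+TSF relative to db/db, turned round. Slc22a7 was 0.11 there with array weights and ran from -0.60 to 0.60 with 1 array left out, and Slc22a19 ran from -1.56 to 0.39. Slco1a6, which lies near 0, also changed sign within its spread, down to -0.06 for db/db relative to db/m and -0.15 for db/db+TSF relative to db/m, both without db/m replicate 3. Same-numbered arrays did not deviate together (correlations -0.08 to 0.15 over 9 pairs, 3 of them highest at their own number). With the replicate block 137 genes passed for db/db relative to db/m and 434 for db/db+TSF relative to db/m. No detection calls were used, so the levels of Slco1a1 and Slc22a30 in db/db+TSF and db/db cannot be told from background.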
